A study of Mus musculus with 5 samples.

Results

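The genes described here encode the subunits of the mitochondrial respiratory chain and of ATP synthase. They were taken from the count table by symbol: Nduf genes of complex I with the letters a, b, c, s or v and a number, the Sdh genes of complex II, 8 Uqcr genes of complex III, 10 Cox genes of complex IV, every Atp5 gene, and the protein-coding mt- genes. The rule found 89 of the 78334 identifiers in the table under 88 symbols, 76 of them nuclear and 13 mitochondrial. Atp5o stood under 2 identifiers, and the second of them (ENSMUSG00000116933) had a count of 0 in every library. The other 88 passed the filter on low counts and were tested. Ndufa4 was counted with complex IV, whose subunit its protein is.

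The respiratory chain passes electrons from NADH through complex I, or from succinate through complex II, to complex III, cytochrome c and complex IV, which reduces oxygen. Complexes I, III and IV pump protons across the inner mitochondrial membrane, and complex V lets them flow back to make ATP. Complex II is encoded by the nuclear genome alone, whereas the other complexes join nuclear subunits, imported from the cytosol, with subunits translated inside the mitochondrion. In white fat the chain serves fat storage and turnover, and in brown fat, which is rich in it, the uncoupling protein Ucp1 turns its proton gradient into heat.

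RNA of visceral fat was sequenced from male C57BL/6 mice in 5 libraries. The obesity group (2 libraries) was fed, from 8 weeks of age and for 8 weeks, a diet with 60% of its calories as fat. From 16 weeks of age it was then given vehicle daily by gastric tube for 28 days, and the resveratrol group (2 libraries), on the same diet, was given 2.25 mg/kg of resveratrol, a plant polyphenol, in the same way. The control group (1 library) was fed standard chow and given vehicle, and tissue was taken after 12 weeks. No genetic change is named for any group, and nothing in the labels says that the libraries in a group stem from different animals. A p-value here therefore measures the spread between libraries, which may be technical.

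The libraries held 19540961 to 27026597 counts, and 17929 to 22955 genes had 10 or more counts. Values are library-scaled counts (CPM, counts brought to a common library total) after TMM scaling, whose factors ran from 0.969 to 1.06. The markers of the labelled tissue were nearly missing from the control library. Its 12 adipocyte markers, all above 0, summed to 571 CPM, against 33218 and 36424 CPM in obesity, 7651 CPM in resveratrol 1 and 34758 CPM in resveratrol 2. Its 12 markers of epididymal epithelium, the lining of the sperm duct beside the testis, summed to 67501 CPM. They summed to 18.9 and 0.286 CPM in obesity, 4197 CPM in resveratrol 1 and 0.389 CPM in resveratrol 2, where 9 of the 12 were at 0 (all but Rnase10, Spink8 and Adam7). Resveratrol 1 also held 45687 CPM of 8 smooth muscle markers, against 361 to 2325 CPM elsewhere. With 1 control library, diet and the content of that library cannot be told apart in any comparison below. In bulk tissue, fewer cells of a type and less RNA per cell cannot be told apart either.

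The mitochondrial mRNAs outweighed the nuclear ones in every library. The 13 mitochondrial genes took 4.49% of all counts in the control, 4.18% and 2.84% in obesity, and 5.46% and 3.04% with resveratrol. The 75 tested nuclear members took 0.814%, 1.08%, 0.969%, 1.07% and 0.903% in the same order. Summed CPM of the mitochondrial genes was therefore 5.52 times the nuclear sum in the control, 3.88 and 2.94 times in obesity, and 5.10 and 3.37 times with resveratrol. This ratio was highest in the control and in resveratrol 1, the libraries low in adipocyte transcripts, and the part of that content in the ratio was not tested.

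By the median ratio, the libraries of a group differed more in the mitochondrial than in the nuclear transcripts. All 13 mitochondrial genes were higher in obesity 1 than in obesity 2, with a median ratio of 1.41 (range 1.07 to 1.93), and all 13 were higher in resveratrol 1 than in resveratrol 2, with a median ratio of 1.79 (1.32 to 2.46). The median ratios of the nuclear members were 1.14 (0.79 to 1.52) and 1.19 (0.66 to 3.20), with 63 and 60 of 75 above 1. For resveratrol the nuclear range was thus wider than the mitochondrial one. The mitochondrial genes are cut from shared precursor transcripts, so their values in a library are not independent of one another.

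By complex, the nuclear sums differed most for complexes II and V, as the plot of summed CPM by complex and genome shows. Complex II read 399.6 CPM in the control, 884 and 821 CPM in obesity, and 650.1 and 733 CPM with resveratrol, so that its groups did not overlap. Complex V read 1954 CPM, then 3356 and 3413 CPM, then 3139 and 3037 CPM, again with no overlap between obesity and either other group. Complex III read 728 CPM in the control, 1227 and 1008 CPM in obesity, and 1028 and 962 CPM with resveratrol. Nuclear complex I ran only from 2515 CPM in the control to 3075 CPM in resveratrol 1, and nuclear complex IV from 2048 CPM in resveratrol 2 to 2636 CPM in resveratrol 1.

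**Figure D1:**
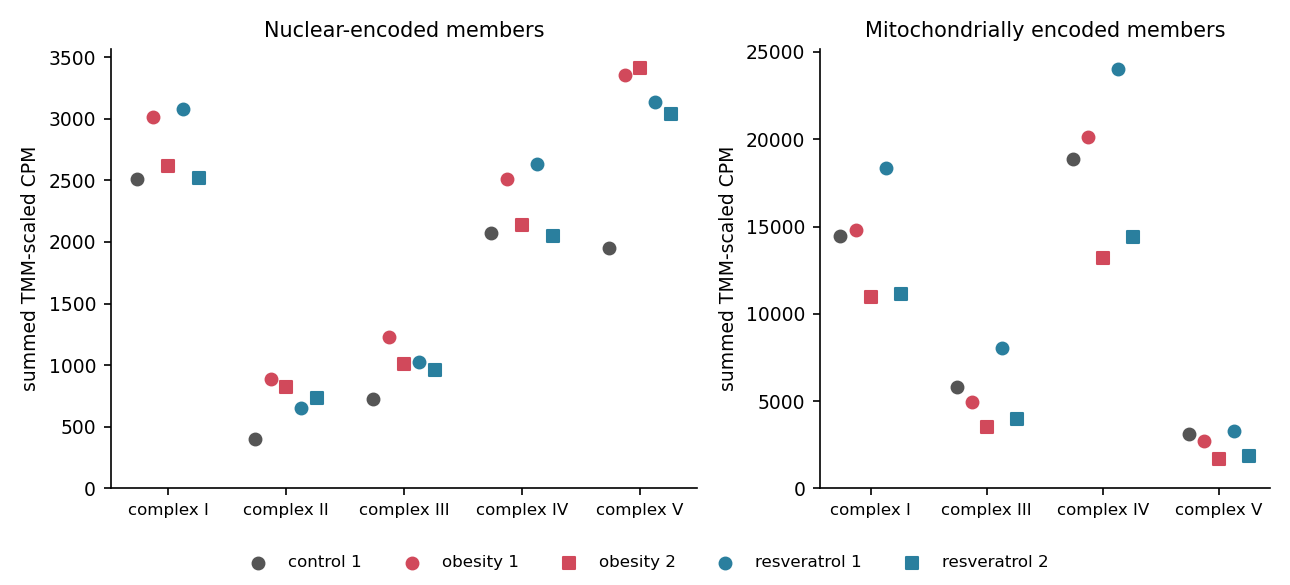
Summed CPM (vertical axes, from 0) of the members of each complex (horizontal axes), nuclear on the left and mitochondrial on the right; each point is 1 library, grey for control, red for obesity and blue for resveratrol, with circles for library 1 and squares for library 2. Nuclear complex II and V sums are lowest in the control (399.6 and 1954 CPM), while the mitochondrial sums are higher in library 1 than in library 2 of both diet groups.

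The first comparison asks how the chain's transcripts differ between the obese mice and the chow-fed control. No member passed edgeR's quasi-likelihood test at an adjusted p under 0.05, as was so for 0% of the 24779 genes tested, and 12 members had an unadjusted p under 0.05, against 24.3% of all genes. The smallest adjusted p was 0.176, for Ndufs1. Of the 75 nuclear members, 42 lay above the control in both obesity libraries and 23 below it in both, against 40.8% and 48.6% of all genes tested. The median log2 difference was 0.25 for nuclear members, -0.32 for the 13 mitochondrial genes and -0.10 for all genes. Without obesity 1 these medians were 0.15 for nuclear and -0.64 for mitochondrial members, and without obesity 2 they were 0.36 and -0.12. More than 2-fold differences were found for 14 of 88 members, 12 higher and 2 lower, against 58.9% of all genes.

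The count of calls differed with the tool, the filter and the libraries in the fit. DESeq2 called 11 members (17.9% of all genes), 10 higher in obesity and 1, Atp5g1, lower, and limma-voom called none (0% of all genes). Without the filter on low counts edgeR called Ndufb3 and Ndufs1 as higher and Atp5g1 as lower (5.92% of all genes). With only the control and obesity libraries in the fit edgeR called 28 members, 21 higher and 7 lower (39.4% of all genes). Leaving out resveratrol 1 gave 28 calls, again 21 higher and 7 lower (37.9%), and leaving out resveratrol 2 gave 26, of which 20 were higher and 6 lower (37.3%). Leaving out either obesity library gave none. The 12 adipocyte markers were all higher in obesity and the 12 epididymal markers all lower, and their part in these differences was not tested.

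**Figure D2:**
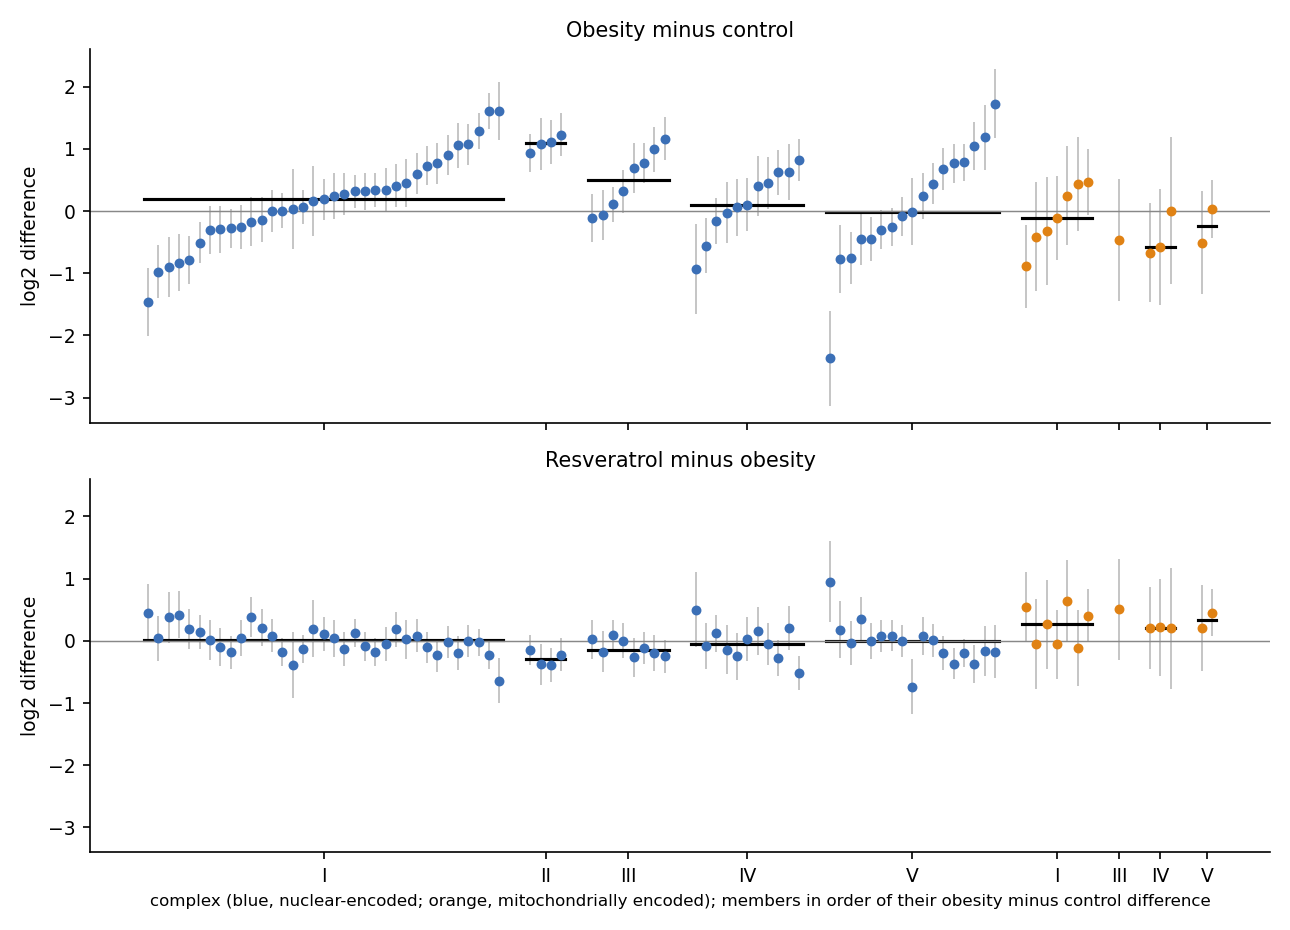
Log2 difference (vertical axes) of obesity against control (top) and of resveratrol against obesity (bottom) for each tested member; points are genes, blue for nuclear and orange for mitochondrial, set side by side by complex in the order of their upper values, with grey bars for 1 SE either way and black lines for medians. In obesity against control complex II lies wholly above 0 (median 1.09), complexes I and V spread to both sides (medians 0.19 and -0.01), and the differences with resveratrol stay between -0.74 and 0.95.

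Complex I, the NADH dehydrogenase, has a catalytic core shared with bacteria and a shell of accessory subunits. Of its 35 tested nuclear members 18 lay above the control and 12 below it in both obesity libraries, with a median log2 difference of 0.19. Over all genes tested 40.8% lay above and 48.6% below, and the counts of every complex are to be read against these shares. The 7 nuclear core subunits split 5 to 2 (median 0.41) and the 28 accessory subunits 13 to 10 (median 0.12). Ndufs1 (ENSMUSG00000025968), the large subunit that carries iron-sulfur clusters of the electron path, read 30.1 CPM in the control, 91.3 and 92.0 CPM in obesity, and 76.8 and 79.6 CPM with resveratrol. All 4 diet libraries lay above the control, and the obesity difference was 1.61 ± 0.29 (log2 difference ± SE; 3.05-fold; edgeR adjusted p 0.176). Ndufv1, the subunit that takes the electrons from NADH, read 85.3 CPM, 165 and 154 CPM, and 168 and 147 CPM (log2 difference in obesity 0.90).

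Other nuclear core subunits differed less. Ndufs7 and Ndufs3 had log2 differences of 0.41 and 0.32 in obesity, with both obesity libraries above the control. Ndufv2, the partner of Ndufv1, read 127 CPM in the control and 112 and 94.3 CPM in obesity (-0.30), and Ndufs8 had a log2 difference of -0.14. The core therefore did not lie on one side of the control.

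Among the accessory subunits the ends of the range were Ndufb3 and Ndufa9 above and Ndufa12 and Ndufa1 below. Ndufb3 (ENSMUSG00000026032), a small membrane-arm subunit, read 37.6 CPM in the control, 136 and 93.9 CPM in obesity, and 58.5 and 89.0 CPM with resveratrol (log2 difference 1.61 ± 0.47; edgeR adjusted p 0.184). Ndufa9 (ENSMUSG00000000399), which helps join the 2 arms of the complex, read 35.7 CPM, 89.0 and 85.8 CPM, and 87.4 and 84.7 CPM (1.29 ± 0.29; adjusted p 0.182 in edgeR). Ndufa9 ran from 84.7 to 89.0 CPM over the 4 diet libraries. Ndufa12 (ENSMUSG00000020022) read 28.3 CPM in the control, 11.3 and 9.19 CPM in obesity, and 18.9 and 9.14 CPM with resveratrol (-1.46 ± 0.55; adjusted p 0.210). Ndufa1 read 95.9 CPM, 58.1 and 39.6 CPM, and 61.0 and 39.5 CPM (-0.97). Ndufa6, Ndufa11 and Ndufb11 followed with -0.90, -0.83 and -0.78, and Ndufs5 stood on the higher side with 1.07.

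Complex II, succinate dehydrogenase, also works in the citric acid cycle. All 4 of its genes lay above the control in both obesity libraries, against 40.8% of all genes tested. Sdha (ENSMUSG00000021577), the flavin subunit that oxidises succinate, read 173 CPM in the control, 371 and 357 CPM in obesity, and 248 and 312 CPM with resveratrol (log2 difference 1.07 ± 0.42). Sdhb, the iron-sulfur subunit, read 70.5 CPM, 134 and 136 CPM, and 125 and 118 CPM (0.93 ± 0.30). The membrane anchors Sdhc and Sdhd had log2 differences of 1.23 ± 0.35 and 1.11 ± 0.36, from 91.2 to 227 and 201 CPM and from 65.1 to 153 and 128 CPM. Adjusted p-values in edgeR were 0.182 for Sdhc and 0.215 for Sdha, so none of the 4 passed.

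Complex III had 6 of 8 nuclear members higher and 1 lower in both obesity libraries, against 40.8% and 48.6% of all genes (median log2 difference 0.51). Uqcrfs1 (ENSMUSG00000038462), the Rieske iron-sulfur protein, read 79.4 CPM in the control, 196 and 159 CPM in obesity, and 153 and 145 CPM with resveratrol (1.16 ± 0.35; edgeR adjusted p 0.184). The core proteins Uqcrc1 and Uqcrc2 had log2 differences of 0.99 and 0.77. The small subunits Uqcrb and Uqcrh lay at the low end with -0.11 (0.06 with its copy added) and -0.07, and Uqcrh read 141 CPM in the control and 162 and 107 CPM in obesity, on both sides of it.

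Complex IV, cytochrome c oxidase, had 6 of 11 nuclear members higher and 3 lower in both obesity libraries (median log2 difference 0.10). The shares of all genes were 40.8% and 48.6%. Cox4i1, the regulatory subunit that binds ATP, read 604 CPM in the control, 661 and 526 CPM in obesity, and 567 and 506 CPM with resveratrol (-0.02). Cox5a, its binding partner, read 63.6 CPM, 129 and 95.2 CPM, and 79.6 and 77.0 CPM (0.81 ± 0.34; edgeR adjusted p 0.225). Cox6a1 was the next highest, with 273 CPM, 426 and 418 CPM, and 538 and 434 CPM (0.63). On the lower side were Cox6c (ENSMUSG00000014313) and Cox5b. Cox6c read 326 CPM in the control and 355 CPM in resveratrol 1, but 206 and 136 CPM in obesity and 130 CPM in resveratrol 2 (-0.93 ± 0.72; adjusted p 0.424). Cox5b read 23.6 CPM, 18.0 and 14.1 CPM, and 18.5 and 11.7 CPM (-0.55). Its direction depends on a copy, Gm11273, which held 607% of its counts and lay on the other side: gene and copy together read 95.0 CPM in the control, 135 and 116 CPM in obesity, and 163 and 116 CPM with resveratrol (0.40).

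Complex V split within its parts. Of 17 tested nuclear members 8 were higher and 7 lower in both obesity libraries, against 40.8% and 48.6% of all genes. Their median log2 difference was -0.01. Most of the higher sum lay in the catalytic head. Atp5b (ENSMUSG00000025393), the subunit that makes ATP, read 294 CPM in the control, 912 and 1034 CPM in obesity, and 840 and 885 CPM with resveratrol (1.73 ± 0.56; 3.31-fold; edgeR adjusted p 0.192). Atp5a1 (ENSMUSG00000025428), which alternates with it in the head, read 375 CPM, 837 and 872 CPM, and 757 and 775 CPM (1.19 ± 0.52; adjusted p 0.236). The rotor stem genes Atp5c1 and Atp5d had log2 differences of 0.44 and 0.25, and Atp5e, its smallest subunit, -0.30.

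The stalk that holds the head in place was split as well. Atp5o and Atp5f1 were higher in both obesity libraries, with log2 differences of 0.78 and 0.77, while Atp5h and Atp5j were lower, with -0.75 (-0.40 with its copy added) and -0.25. Atp5h read 17.3 CPM in the control, 10.6 and 9.85 CPM in obesity, and 11.7 and 8.40 CPM with resveratrol. Among the small membrane subunits Atp5k stood at 0.68 and Atp5l at -0.01 (0.17 with its copies). Atp5s, also called Dmac2l, a factor matched by the symbol rule that is not a structural subunit, stood at -0.45. The inhibitor Atpif1, which the rule leaves out and which blocks ATP hydrolysis by the head, read 106 CPM in the control, 57.0 and 44.5 CPM in obesity, and 95.9 and 40.0 CPM with resveratrol (-1.06 ± 0.59).

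The rotor ring of complex V is built of copies of a single protein, subunit c, whose mature form is the same from 3 genes that differ in their import signals. These genes lay on different sides of the control. Atp5g3 (ENSMUSG00000018770) read 165 CPM in the control, 358 and 321 CPM in obesity, and 261 and 263 CPM with resveratrol (1.04 ± 0.39). Atp5g1 (ENSMUSG00000006057) read 36.6 CPM, 8.14 and 6.05 CPM, and 20.9 and 6.53 CPM (-2.37 ± 0.76; 5.16-fold lower; edgeR adjusted p 0.192), the lowest difference of all members. Atp5g2 read 6.45 CPM, 4.17 and 3.38 CPM, and 4.54 and 4.01 CPM (-0.77 ± 0.54). Atp5g1 supplied 17.6% of the counts of the 3 genes in the control, 2.20% and 1.83% in obesity, 7.28% in resveratrol 1 and 2.39% in resveratrol 2. The high shares were those of the control, rich in epididymal transcripts, and of resveratrol 1. Resveratrol 1 held 45687 CPM of smooth muscle markers and 4197 CPM of epididymal ones. Both libraries were low in adipocyte transcripts, and the part of their content in the shares was not tested.

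Atp5g1 has a near-identical copy, the processed pseudogene Gm10039 at chr11:100361716-100362126 (GRCm38, minus strand), and reads of one can be counted to the other. The 411 coding bases of Atp5g1 align to it with 1 mismatch (99.8% identity). The last 60 coding bases of the gene (positions 352 to 411 from the start codon) and the matching stretch of the copy are shown with the mismatched base in capitals, from the GENCODE M21 transcripts:
Atp5g1: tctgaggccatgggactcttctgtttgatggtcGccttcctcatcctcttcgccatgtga
Gm10039: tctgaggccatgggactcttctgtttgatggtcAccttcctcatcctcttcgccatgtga
Gm10039 held 659% of the counts of Atp5g1 itself over the 5 libraries. It read 199 CPM in the control, 56.0 and 59.0 CPM in obesity, and 159 and 54.2 CPM with resveratrol (log2 difference in obesity -1.79). With the copy's counts added, Atp5g1 supplied 57.9% of the c subunit counts in the control, 15.1% and 16.7% in obesity, 40.4% in resveratrol 1 and 18.5% in resveratrol 2. Gene and copy were both highest in the control and next highest in resveratrol 1, as in the plot of the c subunit genes, while the level of Atp5g1 depends on how shared reads were assigned.

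**Figure D3:**
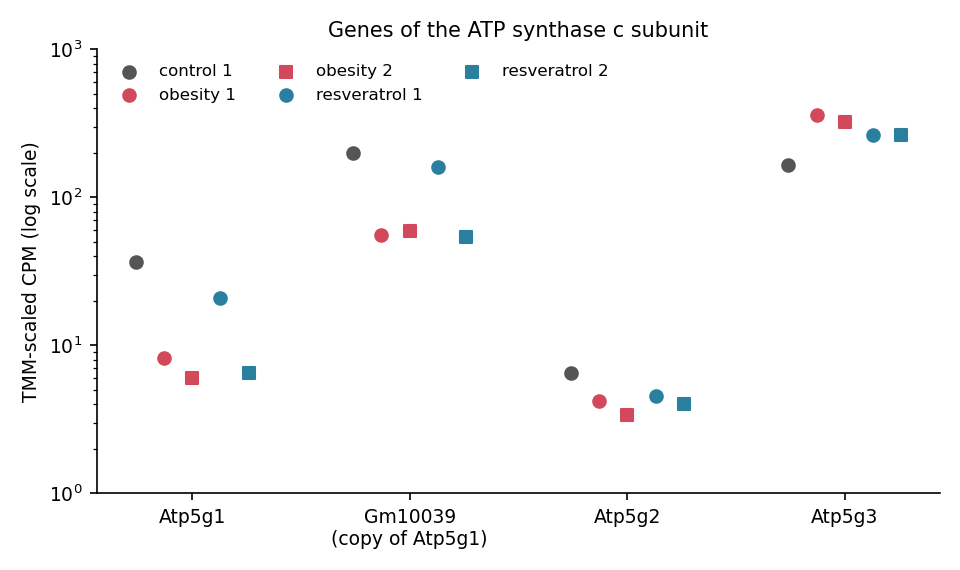
CPM (vertical axis, log scale) of the c subunit genes Atp5g1, Atp5g2 and Atp5g3 and of the copy Gm10039 in each of the 5 libraries (points; grey control, red obesity, blue resveratrol; circles library 1, squares library 2). Atp5g3 is lowest in the control (165 CPM), whereas Atp5g1 and Gm10039 are highest there (36.6 and 199 CPM), followed by resveratrol 1 (20.9 and 159 CPM).

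The mitochondrial genome encodes 7 subunits of complex I, cytochrome b of complex III, 3 catalytic subunits of complex IV and 2 subunits of complex V. In obesity 3 of these 13 genes were higher than in the control in both libraries and 7 were lower in both. Over all genes tested 40.8% were higher and 48.6% lower. The 3 higher ones were mt-Nd2, mt-Nd4l and mt-Nd5, with log2 differences of 0.44, 0.46 and 0.25. mt-Nd2 read 2009 CPM in the control, 3112 and 2319 CPM in obesity, and 2839 and 2155 CPM with resveratrol. mt-Nd4l read 221 CPM, 320 and 289 CPM, and 516 and 288 CPM. mt-Nd5 read 1597 CPM, 1980 and 1811 CPM, and 3882 and 2047 CPM. These genes encode subunits of the membrane arm of complex I, which pumps the protons. So do mt-Nd1, mt-Nd4 and mt-Nd6, which were lower in both obesity libraries, and mt-Nd3, which overlapped the control.

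The lower ones came from all 4 complexes that the genome serves. mt-Nd6 read 1329 CPM in the control, 840 and 598 CPM in obesity, and 1357 and 735 CPM with resveratrol (log2 difference -0.89 ± 0.67). mt-Co2, which takes the electrons from cytochrome c, read 3323 CPM, 2533 and 1643 CPM, and 3009 and 1802 CPM (-0.67 ± 0.79). mt-Co3 read 3141 CPM, 2686 and 1528 CPM, and 3477 and 1414 CPM (-0.58). The other 4 were mt-Atp6, the proton channel of complex V (-0.51), mt-Cytb (-0.47), mt-Nd1 (-0.41) and mt-Nd4 (-0.32). The SE of these 7 differences was 0.67 or more, so that they were within the error of the fit or little above it.

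mt-Co1, mt-Nd3 and mt-Atp8 overlapped the control. mt-Co1, the subunit that holds the oxygen-reducing centre, read 12424 CPM in the control, 14927 and 10050 CPM in obesity, and 17552 and 11194 CPM with resveratrol (0.01 ± 1.19). It supplied 29.4% of all mitochondrial member counts in the control and 32.7% to 35.7% in the diet libraries. mt-Nd3 read 193 CPM, 235 and 122 CPM, and 231 and 112 CPM. mt-Atp8 was the lowest of the 13, with 7.85 CPM, 8.30 and 7.76 CPM, and 12.9 and 9.14 CPM.

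mt-Atp8 shares bases with its neighbour mt-Atp6, and a read in the shared stretch cannot be given to 1 gene. The annotated genes overlap by 43 bases at MT:7927-7969 (GRCm38, plus strand), shown here because mt-Atp8 was so low beside mt-Atp6, at 3130 CPM in the control:
mt-Atp8 and mt-Atp6: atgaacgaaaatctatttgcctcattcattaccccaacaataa
mt-Nd4l and mt-Nd4 share 7 bases, and mt-Nd6, the only member on the other strand of the mitochondrial genome, overlaps the end of mt-Nd5 by 14 bases. mt-Nd6 stood at 83.2% of mt-Nd5 in the control and at 33.0% to 42.4% in the diet libraries. The strand setting of the counting is not given in the sources used here, so antisense reads in mt-Nd6 cannot be told apart from its own.

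A stretch of mitochondrial sequence on chromosome 1 carries copies of the mitochondrial genes and took many of the reads. The coding bases of mt-Atp6 are matched by Gm10925 (chr1:24613974-24614651, GRCm38, minus strand) over 678 bases with 0 mismatches, and those of mt-Co1 by Gm29216 (chr1:24615706-24616197, minus strand) over 483 bases with 1 mismatch. The first 60 coding bases of mt-Atp6 and positions 1063 to 1122 of mt-Co1 show how little separates gene and copy, with the mismatched base in capitals:
mt-Atp6: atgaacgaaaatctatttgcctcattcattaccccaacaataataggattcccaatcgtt
Gm10925: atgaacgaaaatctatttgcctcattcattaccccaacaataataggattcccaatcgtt
mt-Co1: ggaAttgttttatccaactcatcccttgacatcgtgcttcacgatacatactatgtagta
Gm29216: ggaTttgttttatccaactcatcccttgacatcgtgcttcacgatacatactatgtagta
Gm10925 held 111% of the counts of mt-Atp6, and the copies of mt-Co2, mt-Co3 and mt-Nd4l held 104%, 104% and 103% of theirs. For mt-Nd4 and mt-Co1 the copies held 26.1% and 21.4%. Gm10925 read 3246 CPM in the control, 3039 and 1901 CPM in obesity, and 3796 and 2087 CPM with resveratrol, in the same order over the libraries as mt-Atp6. With the copies included the mitochondrial share of counts was 6.00% in the control, 5.43% and 3.64% in obesity, and 7.09% and 3.91% with resveratrol.

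Copies were found for 20 members, 13 nuclear and 7 mitochondrial, as genes of which at least 25% of the 75-base stretches stand in a member's transcript. For several small subunits the copy held most of the counts: Gm10221 had 2537% of the counts of Atp5l, Gm10250 1259% of those of Atp5h, and Ndufb4c 1195% of those of Ndufb4. The level and the difference of such members are therefore uncertain. Ndufa12 is 1 of them, and its copy Gm15920 (chr5:130188395-130188796, GRCm38, plus strand) differs from its coding sequence at 2 of 402 aligned bases. Positions 127 to 186 hold 1 of them, in capitals:
Ndufa12: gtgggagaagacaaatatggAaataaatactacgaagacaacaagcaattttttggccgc
Gm15920: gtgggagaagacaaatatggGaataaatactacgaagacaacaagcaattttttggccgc
Gm15920 read 43.0 CPM in the control, 31.8 and 35.6 CPM in obesity, and 65.9 and 36.6 CPM with resveratrol. With its counts added, the obesity difference of Ndufa12 was -0.70 in place of -1.46. That of Ndufb4 was 0.86 in place of 0.03. The nuclear members above and below the control in both obesity libraries were then 45 and 21 of 75. With every member summed with its copies, edgeR again called no member in any comparison, with 11, 0 and 5 members at an unadjusted p under 0.05.

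Levels between genes were compared per kilobase of mRNA. The 75 nuclear members averaged 127 CPM per kilobase in the control, 161 and 142 in obesity, and 161 and 134 with resveratrol, and the 13 mitochondrial genes 3191, 3080 and 2098, and 3863 and 2220. The highest nuclear member in the control was Cox4i1, at 789 CPM per kilobase, followed by Cox6c at 647, Cox8a at 574 and Cox6a1 at 478. Atp5b stood at 153 CPM per kilobase in the control and at 476 and 539 in obesity. The order of the nuclear members was much the same in all libraries, with Spearman correlations from 0.883 (control and obesity 1) to 0.994 (obesity 2 and resveratrol 2) over 75 genes, which share the libraries and their depth. The control correlated at 0.958 with resveratrol 1, above its values with the other libraries.

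Without copies added, the longer nuclear members lay above the control in obesity more often than the shorter ones. Over the 75 nuclear members the log2 difference and the length of the coding sequence had a Spearman correlation of 0.42, against 0.03 over 16179 tested protein-coding genes. Over all genes tested 40.8% were higher and 48.6% lower in both obesity libraries. Of the 38 members at or above the median coding length of 429 bases, 26 were higher and 8 lower (median log2 difference 0.42). Of the 37 shorter members 16 were higher and 15 lower (0.03). These values are without copies, and the 0.03 is the value of Ndufb4, which stood at 0.86 with its copy added. With copies added the shorter members Cox5b, Ndufb4 and Cox7c lay above the control in both obesity libraries, and Uqcrb overlapped it. The relation to length was not recomputed with copies. Among all coding genes the medians were 0.15 for those at least as long and -0.19 for those shorter. Long members include the catalytic subunits Ndufs1, Atp5a1, Atp5b and Sdha, and short ones the small membrane subunits, so that length and role cannot be told apart in this list.

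**Figure D4:**
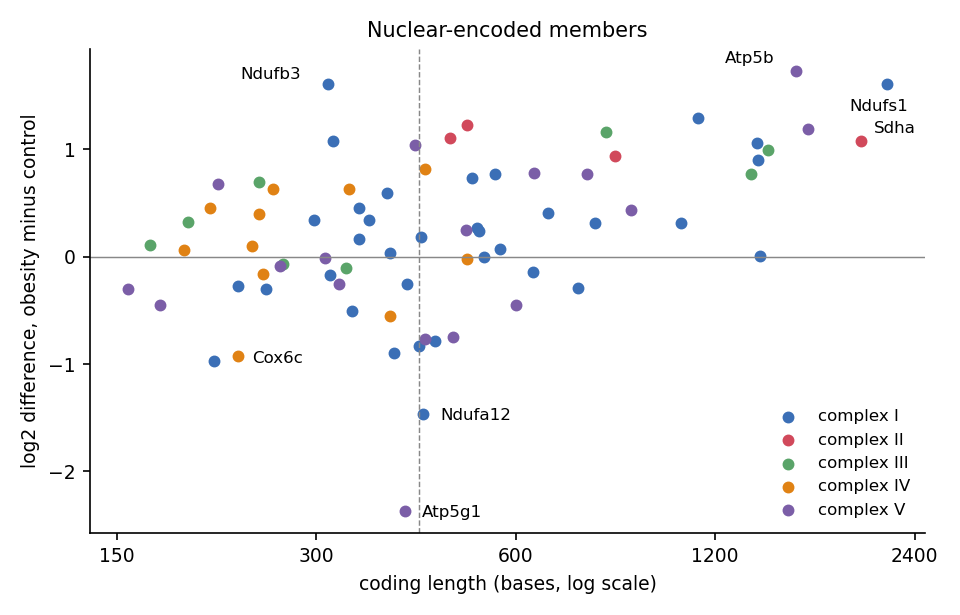
Log2 difference of obesity against control (vertical axis) by length of the coding sequence in bases (horizontal axis, log scale) for the 75 tested nuclear members, coloured by complex, with a dashed line at the median length. Most members at or above the median length of 429 bases lie above 0 (median 0.42), while shorter ones lie on both sides (median 0.03). Counts of copies are not added.

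The second comparison asks whether resveratrol altered these transcripts in obese mice. No member passed edgeR's test (0% of all genes called), DESeq2 (0.839%) or limma-voom (0%), none had an unadjusted p under 0.05 in edgeR (2.34% of all genes), and the smallest adjusted p was 0.899. No member differed more than 2-fold, against 28.9% of all genes. The log2 differences ran from -0.74 for Atp5l (-0.39 with its copies) to 0.95 for Atp5g1, with medians of -0.02 for nuclear members, 0.22 for mitochondrial genes and 0.05 for all genes. The sign of the medians depended on single libraries. Without resveratrol 1 they were -0.18 for nuclear and -0.15 for mitochondrial members, and without resveratrol 2 they were 0.09 and 0.60. Without obesity 1 they were 0.06 and 0.52, and without obesity 2 -0.14 and -0.06. Without resveratrol 2, edgeR called Atp5g1, Ndufa11 and Ndufa6, all higher (19.5% of all genes), and the lone library left was then the one with smooth muscle and epididymal transcripts.

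Both resveratrol libraries lay below both obesity libraries for 23 of 75 nuclear members and above them for 3, against 16.7% and 16.9% of all genes tested. The 23 lower ones held all 4 genes of complex II, with Sdha at 371 and 357 CPM in obesity and 248 and 312 CPM with resveratrol (log2 difference -0.38) and Sdhd at 153 and 128 CPM and then 93.1 and 121 CPM (-0.39). They held 8 genes of complex I, among them Ndufb3 (-0.64) and Ndufs1 (-0.23), 2 of complex III (Uqcrfs1 and Uqcrc1), 3 of complex IV and 6 of complex V. Cox5a read 129 and 95.2 CPM in obesity and 79.6 and 77.0 CPM with resveratrol (-0.52). Atp5b read 912 and 1034 CPM and then 840 and 885 CPM (-0.17). The 3 higher ones were Ndufs3, Cox6a1 and Atp5s, with log2 differences of 0.12, 0.20 and 0.35. With copies added 3 of 75 nuclear members were above and 22 below. Ndufs3 (0.004) and Cox7c (-0.28) then overlapped obesity, and Ndufa12 (0.57) lay above it. At the ends of the range within each complex were Ndufa12 (0.45) and Ndufa11 (0.42) above and Ndufb3 and Ndufb4 (-0.39) below in complex I, Uqcr11 (0.10) above and Uqcrq (-0.27) below in complex III, and Cox6c (0.50) above and Cox5a below in complex IV. In complex V Atp5g1 and Atp5s stood above, and Atp5l and Atp5g3 (-0.37) below. Ndufa11 read 72.4 and 71.7 CPM in obesity and 126 and 67.1 CPM with resveratrol, on either side of it. Of the mitochondrial genes mt-Nd5 and mt-Atp8 were higher in both resveratrol libraries, with 0.65 and 0.45, and none was lower.

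The 2 resveratrol libraries did not stand alike beside the obesity libraries. Resveratrol 1 was above both of them for 39 nuclear members and below both for 24, and above both for 10 of 13 mitochondrial genes. Resveratrol 2 was above both for 3 nuclear members and below both for 55, and for mitochondrial genes above both for 2 and below both for 5. Its median log2 difference to the obesity mean was -0.19 over nuclear members, while that of resveratrol 1 was 0.08. Obesity 1 alone was above both resveratrol libraries for 36 nuclear members and obesity 2 for 23. Of the members that lay below the control in both obesity libraries, Cox6c, Ndufa12, Ndufa6, Ndufa11 and Atp5g1, picked after their values were seen, were nearer to the control in resveratrol 1 than in any other diet library. Without resveratrol 1 the log2 difference of Atp5g1 was -0.11 in place of 0.95, that of Cox6c -0.39 in place of 0.50, and that of Ndufa12 -0.15 in place of 0.45.

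The third comparison sets resveratrol on the high-fat diet against chow. It shares the control with the first comparison and the resveratrol libraries with the second, so its values are given beside theirs and not as further evidence. edgeR called no member (0% of all genes), with 5 at an unadjusted p under 0.05 (18.5%), limma-voom called none (0.323%), and DESeq2 called Atp5a1, Atp5b, Ndufa9 and Ndufs1 as higher (12.2%). Leaving out resveratrol 1 gave 21 calls in edgeR, 14 higher and 7 lower (30.7%), and leaving out resveratrol 2 gave 7, all higher (17.2%). Of the nuclear members 40 were higher and 25 lower in both resveratrol libraries than in the control, against 37.7% and 41% of all genes. The median log2 difference was 0.28 for nuclear members (0.13 without resveratrol 1) and -0.05 for mitochondrial genes (-0.53 without resveratrol 1 and 0.30 without resveratrol 2). Ndufs1 had a log2 difference of 1.38 and Ndufa9 of 1.27, against 1.61 and 1.29 for obesity. The complex II genes stood between 0.70 and 1.01, Uqcrfs1 at 0.91, Cox6a1 at 0.83, and Atp5b and Atp5a1 at 1.55 and 1.03. At the low end were Ndufa12 (-1.01), Ndufa1 (-0.93), Cox5b (-0.64), Uqcrh (-0.24), Atp5g1 (-1.42) and Atp5h (-0.78). With copies added Cox5b stood at 0.55, above the control in both resveratrol libraries, and Ndufa12 at -0.13, with 71.3 CPM in the control and 84.8 and 45.7 CPM with resveratrol on either side. Atp5g1 and Atp5h were then at -0.97 and -0.29, still below the control in both. Of the mitochondrial genes 4 were above the control in both resveratrol libraries (mt-Nd2, mt-Nd4l, mt-Nd5 and mt-Atp8) and 2 below (mt-Nd1 and mt-Co2). Past 2-fold were 8 members, against 54.1% of all genes.

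Complex IV has subunit forms that are limited to some tissues, which the symbol rule leaves out. Cox7a1 and Cox8b are forms of muscle and brown fat, Cox6a2 is a form of muscle, Cox4i2 is found in lung, and Cox6b2 and Cox8c in testis. Cox8b had a count of 0 in the control and read 52.6 and 5.43 CPM in obesity, and 0.863 and 7.12 CPM with resveratrol. Per kilobase it stood at 18.1% of Cox8a in obesity 1, at 1.98% in obesity 2, and at 0.310% and 2.69% with resveratrol. Cox7a1 stood at 13.5% of Cox7a2 in obesity 1 and at 2.20% to 2.95% in the other 4 libraries. Obesity 1 was also the library with brown fat transcripts, with 88.6 CPM of Ucp1, against 0.381 CPM or less elsewhere, and the part of those cells in the values was not tested. Both forms are also on the brown fat marker list.

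Cox6a2 was high in both obesity libraries and not in obesity 1 alone. It read 0.0697 CPM in the control, 9.44 and 7.47 CPM in obesity, and 0.409 and 0.817 CPM with resveratrol (log2 difference to obesity -3.77). Ndufa4l2, a relative of Ndufa4 that is induced by lack of oxygen, read 3.52 CPM, 14.6 and 13.4 CPM, and 4.63 and 25.7 CPM, so that the resveratrol libraries lay on either side of obesity. The testis form Cox6b2 read 6.56 CPM in the control and 7.63 CPM in resveratrol 1, and 1.33 to 2.57 CPM in the other 3. Cox4i2 read 1.26 CPM, 2.40 and 2.86 CPM, and 3.00 and 7.47 CPM, and Cox8c was under 1 CPM everywhere. edgeR called none of the 7 forms in any comparison.

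**Figure D5:**
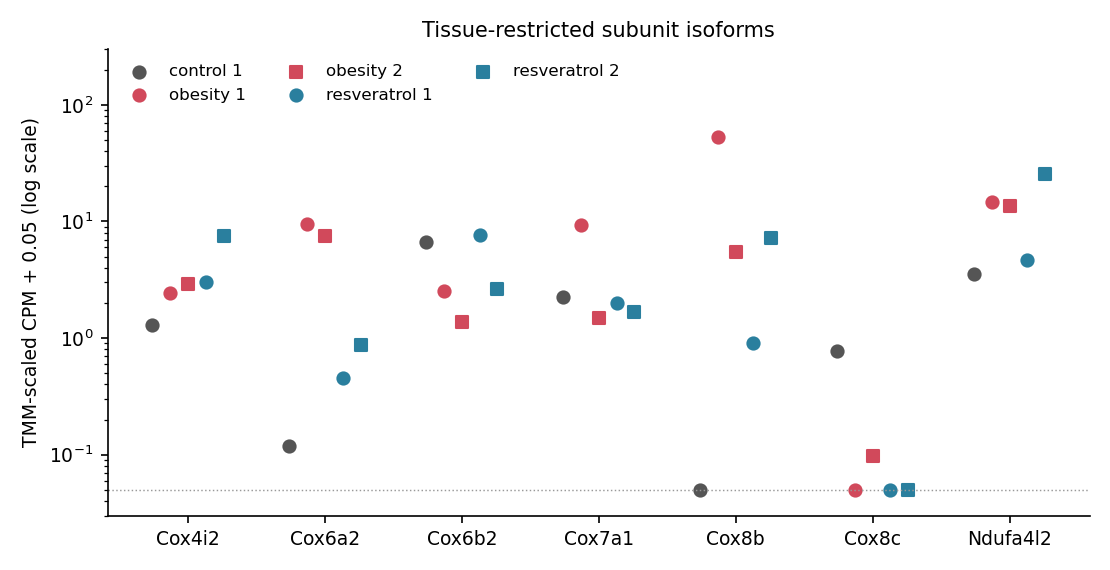
CPM plus 0.05 (vertical axis, log scale) of 7 tissue-limited subunit forms (horizontal axis) in each of the 5 libraries (points; grey control, red obesity, blue resveratrol; circles library 1, squares library 2), with a dotted line at a count of 0. Cox8b and Cox7a1 are highest in obesity 1 (52.6 and 9.23 CPM), Cox6a2 is high in both obesity libraries (9.44 and 7.47 CPM), and Cox6b2 is highest in the control and resveratrol 1 (6.56 and 7.63 CPM).

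Genes that build, feed or regulate the chain were followed as fixed lists, and no gene of them passed edgeR's test in any comparison. The citric acid cycle, which supplies NADH and succinate, lay on 1 side: all 13 genes lay above the control in both obesity libraries (median log2 difference 1.20), against 40.8% of all genes tested, and 10 of 13 were lower in both resveratrol libraries than in both obesity libraries (-0.18), against 16.7%. Its summed level was 1098 CPM in the control, 2738 and 2693 CPM in obesity, and 2069 and 2318 CPM with resveratrol. Idh3a, a subunit of isocitrate dehydrogenase, read 34.7 CPM, 217 and 260 CPM, and 72.1 and 190 CPM, and was at the end of the list in all 3 comparisons (2.78, -0.87 and 1.91). Without resveratrol 1 the last 2 of these values were -0.32 and 2.47. Suclg1 lay at the other end in obesity, with 0.29. All 12 adipocyte markers also lay above the control in both obesity libraries. In resveratrol against obesity 3 of the 12 lay below and 1 above. They summed to 33218 and 36424 CPM in obesity, 7651 CPM in resveratrol 1 and 34758 CPM in resveratrol 2. Their part in the citric acid cycle values was not tested.

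Counts for the assembly factors and the lists after them are to be read against 40.8% of all genes above the control and 48.6% below it. Both obesity libraries were above it for 11 of 15 complex I factors (2 below; median 0.42), 7 of 10 factors of complexes II and III (1 below; 0.31), 9 of 17 of complex IV (2 below; 0.37) and 3 of 5 of complex V (1 below; 0.73). Acad9, a complex I factor that resembles acyl-CoA dehydrogenases, stood at 1.34 and Ndufaf3 at -0.56. Cox15, which makes heme a for complex IV, read 115 CPM in the control, 36.3 and 48.0 CPM in obesity, and 31.6 and 38.1 CPM with resveratrol (-1.44). Atpaf2 and Atpaf1, which bind the free Atp5a1 and Atp5b proteins respectively, stood at 1.86 and -0.73. With resveratrol against obesity the counts above and below were 0 and 5, 1 and 2, 2 and 4, and 1 and 2 for the same lists, against 16.9% of all genes above and 16.7% below.

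The 18 genes that copy and express the mitochondrial genome divided evenly in obesity, with 7 above the control and 8 below (median -0.02). Polg, the mitochondrial DNA polymerase, stood at 1.22 and Ssbp1, which coats its single strands, at -1.07. Lrpprc, which stabilises mitochondrial mRNAs, was the highest of them in resveratrol against obesity (0.69) and against control (1.68). Both rested on resveratrol 1: Lrpprc read 24.9 CPM in the control, 44.6 and 53.9 CPM in obesity, and 119 and 40.6 CPM with resveratrol, and without resveratrol 1 the differences were -0.27 and 0.73. Of 8 outer membrane genes 4 were above and 2 below, from Samm50 at 1.32 to Vdac2 at -0.27. Cyc1 and Cycs, which carry electrons at and after complex III, read 96.7 and 34.9 CPM in the control, 169 and 58.9 CPM in obesity 1, and 195 and 41.2 CPM in obesity 2. Cox7a2l read 293 CPM in the control and 109 to 139 CPM in the diet libraries (log2 difference in obesity -1.29).

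Of 10 transcription regulators of the chain, 7 were above the control in both obesity libraries and 2 below (median 0.59). Esrra, an orphan nuclear receptor that binds promoters of respiratory genes, read 35.3 CPM in the control, 94.6 and 91.3 CPM in obesity, and 79.5 and 81.8 CPM with resveratrol (1.40). The coactivator Ppargc1b stood at 1.75 and the receptor Esrrg at -0.98. Ppargc1a read 3.66 CPM in the control, 3.65 and 1.62 CPM in obesity, and 2.14 and 1.79 CPM with resveratrol. Nrf1, Gabpa and Tfam read 15.9, 21.6 and 22.9 CPM in the control, against 25.4 and 19.1, 36.7 and 38.0, and 27.6 and 22.2 CPM in obesity.

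The promoters of the nuclear members were searched for the letters that such factors are known to bind, on both strands, from 250 bases before to 50 bases after the start. RefSeq (GRCm38.p6) held 63 of the 75 members and 17492 protein-coding genes. CGCATGCG, the core of the palindrome bound by NRF-1, stood in 8 of 63 (12.7%), against 2.54% of all coding genes: Atp5g2, Atp5k, Atp5l, Cox6a1, Ndufa8, Ndufa11, Uqcr11 and Uqcrc1. CCGGAAG, the core of sites for ETS factors such as Gabpa, stood in 15 (23.8%, against 11.9%), and AAGATGGC, bound by YY1, in 9 (14.3%, against 3.22%). TCAAGGTCA, bound by receptors such as Esrra, stood in 2 (3.17%, against 0.332%), Atp5g3 and Sdhd. GGGCGG, the GC box, which can overlap the others, stood in 25 (39.7%, against 46.3%).

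Genes with the NRF-1 letters did not share a direction. The 2 with TCAAGGTCA, Atp5g3 and Sdhd, lay above the control, as did 56% of the 75 nuclear members and 40.8% of all genes tested. With 2 genes this says nothing on the letters. Stretches of 4 genes are printed, and that of Sdhd shows its ETS letters and not its TCAAGGTCA. Atp5g3 and Atp5g2 encode the same ring subunit, hold different letters and lay on different sides of the control. Atp5g2 and Atp5k both hold the NRF-1 letters and also lay on different sides. Their windows are not alike otherwise, as Atp5k also holds CCGGAAG, outside the stretch printed, and Atp5g2 does not. The stretches run 5′ to 3′ on the gene's strand, with the matched letters, of either strand, in capitals: TCAAGGTCA in Atp5g3 (chr2:73911327-73911476, minus), 52 bases before the start, the NRF-1 letters in Atp5g2 (chr15:102671070-102671099, minus) and Atp5k (chr5:108434430-108434459, minus), 41 and 49 bases before it, and CCGGAAG in Sdhd (chr9:50603877-50603906, minus), 46 bases before it:
Atp5g3: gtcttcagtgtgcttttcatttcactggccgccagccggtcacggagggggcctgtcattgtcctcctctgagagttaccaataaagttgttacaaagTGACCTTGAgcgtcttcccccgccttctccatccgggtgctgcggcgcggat
Atp5g2: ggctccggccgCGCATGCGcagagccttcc
Atp5k: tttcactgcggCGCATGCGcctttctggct
Sdhd: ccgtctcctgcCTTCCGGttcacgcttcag
The log2 differences in obesity of these genes were 1.04 for Atp5g3, -0.77 for Atp5g2, 0.68 for Atp5k and 1.11 for Sdhd. A match is a run of letters in these windows and no measure of binding.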

How the data were processed

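A lipid tissue kit gave the RNA, and stranded poly-A libraries were read as pairs of 150 bases, per the labels' protocols. The authors deposited whole-number counts per Ensembl gene for 5 libraries, made with featureCounts on GRCm39 after FastQC, per the submitters' processing notes. Which aligner, annotation release and strand setting were used is not given in the sources used here. Symbols were given to 65.7% of 78334 identifiers. Total counts were 19540961 to 27026597 per library, and at a low level the counting error adds to the spread between libraries.

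The tests used edgeR 4.0.16 in R 4.3.3. filterByExpr (minimum count 10, minimum total 15) kept 24779 genes. A robust quasi-likelihood fit on all 5 libraries with TMM factors gave 3 comparisons, adjusted with Benjamini-Hochberg at 0.05. For the control, with 1 library, the spread of the other groups was used. An exact permutation over libraries cannot give a p below 0.333 here, so none is used. The fit was tested on simulated data for resveratrol against obesity only, with large planted differences and the same spread for every gene. That test does not cover the comparisons with the lone control. "Above" and "below" mean that no library of one group overlaps the other.

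The members and the lists were chosen with earlier results of these data known. The rule for names took all mitochondrial members, the 2 highest and 2 lowest nuclear members per complex and comparison (1 each in complex II), a fixed core with the inhibitor, tissue-limited forms, regulators, cytochrome c genes, and the ends of each list, of which a selection is given, and 1 member of the rule is not reported by name here. Of 187 listed genes 186 were matched. Markers of germ cells, skeletal muscle, endothelium and macrophages were listed too. They summed to 185, 18.2, 191 and 92.4 CPM in the control, to 2.50 and 2.67, 87.1 and 51.9, 782 and 663, and 2060 and 1880 CPM in obesity, and to 9.99 and 2.72, 1086 and 38.9, 266 and 1464, and 306 and 2229 CPM with resveratrol. Brown fat markers summed to 6.63 CPM, 227 and 27.0 CPM, and 15.7 and 18.7 CPM.

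Lengths, exon overlaps and copies came from GENCODE M21 (GRCm38), another build than the counts', and promoters from RefSeq GRCm38.p6. A copy is a gene of which at least 25% of its 75-base stretches stand in a member's transcripts. Alternatives were DESeq2 1.42.0, limma-voom (limma 3.58.1), other scalings and filters, only the groups compared, a replicate block, and fits that lack 1 library each. A fit without both the control and resveratrol 1, and members summed with their copies, were chosen after seeing the data. Figures were drawn in Python 3.11.15 with matplotlib 3.10.9.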

Additional observations from a re-analysis of the deposited data

How the results depend on the processing

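For obesity against control, the count of members called was 3 without the filter on low counts, 11 with DESeq2 and 28 with only the groups compared, against 0 in edgeR on all libraries, and it ran from 0 to 28 when each library was left out. For resveratrol against obesity it ran from 0 to 3 when libraries were left out. For resveratrol against control it was 4 with DESeq2 and ran from 0 to 21. The cause of these differences was not tested. A group left with 1 library is assumed to vary like the others, and leaving out the control gives no value for the comparisons with it. The median nuclear difference in obesity was 0.13 with a minimum count of 50. Of the log2 differences recomputed for named members, 618 stayed within 1 SE of the reported value, 71 passed the threshold in the same direction, and 8 moved by more than 1 SE. Those 8 were Ndufa12 with its copy added (-0.70 in obesity and -0.13 with resveratrol, both against control), and Ndufa12, Cox6c and Atp5g1 in resveratrol against obesity in the fits that lack resveratrol 1. They leave out Cox5b, Ndufb4 and Atp5h, which also moved by more than 1 SE with copies added. Against control, Cox5b then stood at 0.40 in obesity and 0.55 with resveratrol, in place of -0.55 and -0.64. Ndufb4 stood at 0.86 and 0.60, in place of 0.03 and -0.36. Atp5h moved so with resveratrol only, to -0.29 in place of -0.78. Of the summed CPM by complex and genome, recomputed per group with median-ratio size factors and without TMM factors, 51 stayed within their spread (for the lone control, within counting error) and 15 moved. The control's nuclear sum was 7888 and 8136 CPM and its mitochondrial sum 43541 and 44910 CPM under these scalings. Members with low counts, such as Ndufb4 and Atp5l, are also limited by depth.

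Obesity and resveratrol libraries share their numbers, with no label that pairs them. Deviations of the same-numbered libraries from their group means correlated at 0.282 over 24779 genes. With the replicate block 0 members were called in each comparison, with 4, 0 and 3 at an unadjusted p under 0.05 in place of 12, 0 and 5. The median nuclear difference was then 0.35, -0.02 and 0.39, and the mitochondrial one -0.04, 0.19 and 0.24.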
